A study of Mus musculus with 22 samples.

Results

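The genes described here build, modify or signal to the extracellular matrix of the liver, or mark the hepatic stellate cells that make much of it. The set holds 33 genes, taken by symbol: 4 fibrillar collagens, 3 basement membrane and type VI collagen chains, 9 matrix glycoproteins and proteoglycans, 5 proteases, inhibitors and crosslinkers, 2 profibrotic signals, 4 receptors, and 6 genes of stellate cell identity and cytoskeleton. All 33 were among the 23227 genes of the mRNA count table, and 30 of them passed the filter on low counts with 12909 genes in all. All 33 also had a promoter among the 20891 tested for acetylation of histone H3 at lysine 27 (H3K27ac), a mark of active promoters and enhancers.

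The livers came from wild-type C57BL/6J mice, an inbred strain, aged 24 weeks and fasted overnight. Chow mice ate standard chow throughout, while high-fat mice were moved at 8 weeks to a high-fat diet and kept on it for 16 weeks. For each diet there were 3 mRNA libraries and 3 H3K27ac libraries, made from pulverized whole liver. The labels number the replicates without naming the animals, so the p-values measure the spread between these libraries, which may in part be technical.

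Stellate cells lie between the hepatocytes and the sinusoidal endothelium and store vitamin A as retinyl esters. In injured liver they can turn into contractile myofibroblasts that secrete collagens I and III, crosslinking enzymes and protease inhibitors, a response for which TGF-beta and PDGF are the best known signals. Hepatocytes themselves secrete plasma fibronectin, so not every matrix transcript of whole liver comes from stellate cells. In whole liver, fewer or more cells of a type and less or more RNA per cell cannot be told apart.

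RefSeq promoter sequences were matched by symbol for 22 of the 33 genes. The 250 bases upstream of the start site are shown for 5 genes: Col1a2 and Col3a1, whose mRNA and promoter acetylation are compared below, Mmp13 and Ecm1, the genes with an AP-1 sequence, and Tgfb1, the main signal of the set. All are given 5′ to 3′ on the gene's strand in build GRCm38.p6. Capitals mark short motifs found on either strand. TATAAA is the letters of the TATA box that positions the polymerase. CCAAT is a common upstream element bound by nuclear factor Y. TGANTCA is the site of AP-1, the factor made of Jun and Fos proteins. GGGCGG is the GC box bound by Sp1, and it reads as its reverse complement where it lies on the other strand.
Col1a2, chr6:4505368-4505617, plus strand: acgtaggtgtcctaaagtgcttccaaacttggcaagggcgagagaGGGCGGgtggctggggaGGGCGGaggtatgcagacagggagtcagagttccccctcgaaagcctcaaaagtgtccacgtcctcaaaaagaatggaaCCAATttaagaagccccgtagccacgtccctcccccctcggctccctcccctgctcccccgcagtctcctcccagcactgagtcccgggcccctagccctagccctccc
Col3a1, chr1:45311288-45311537, plus strand: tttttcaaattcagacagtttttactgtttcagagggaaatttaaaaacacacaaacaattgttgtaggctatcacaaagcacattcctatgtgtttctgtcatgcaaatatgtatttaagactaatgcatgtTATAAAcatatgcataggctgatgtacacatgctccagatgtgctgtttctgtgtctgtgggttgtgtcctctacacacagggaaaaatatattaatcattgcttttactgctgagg
Mmp13, chr9:7272264-7272513, plus strand: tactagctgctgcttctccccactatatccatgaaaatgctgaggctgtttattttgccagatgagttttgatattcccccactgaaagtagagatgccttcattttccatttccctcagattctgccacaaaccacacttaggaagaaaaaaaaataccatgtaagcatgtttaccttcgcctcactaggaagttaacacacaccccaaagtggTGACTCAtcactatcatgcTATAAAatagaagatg
Ecm1, chr3:95739570-95739819, minus strand: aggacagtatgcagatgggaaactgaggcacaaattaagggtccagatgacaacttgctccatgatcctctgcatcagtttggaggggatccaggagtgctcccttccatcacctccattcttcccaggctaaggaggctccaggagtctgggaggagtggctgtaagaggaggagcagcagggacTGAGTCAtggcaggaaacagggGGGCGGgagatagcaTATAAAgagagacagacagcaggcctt
Tgfb1, chr7:25686752-25687001, plus strand: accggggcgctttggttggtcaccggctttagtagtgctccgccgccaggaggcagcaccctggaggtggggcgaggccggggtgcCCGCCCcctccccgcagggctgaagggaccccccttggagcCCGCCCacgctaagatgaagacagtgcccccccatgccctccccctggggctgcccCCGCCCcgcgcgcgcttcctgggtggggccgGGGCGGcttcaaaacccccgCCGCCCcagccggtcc

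The windows differed in composition, from 35.2% G and C in Col3a1 to 75.2% in Tgfb1, with 40.4% in Mmp13, 54.0% in Ecm1 and 62.0% in Col1a2. The AP-1 sequence TGANTCA stood in 2 of the 22 matched genes, Ecm1 and Mmp13, and in 6.75% of all 32851 windows of this length. Its last base lay 58 bases upstream of the start in Ecm1 and 29 bases upstream in Mmp13. TATAAA stood in 6 of the 22 genes (Col3a1, Postn, Ecm1, Spp1, Thbs2 and Mmp13) against 12.4% of all windows, CCAAT in 9 against 33.8%, and GGGCGG in 12 against 32.7%. The last base of TATAAA lay 22 bases upstream of the start in Ecm1 and 11 in Mmp13, but 112 in Col3a1. A gene was counted if any of its windows matched, and the 22 genes had 24 windows, so the shares of genes and windows are not on the same footing. The CArG box, bound by serum response factor, was searched only in its strict form of CC, 6 bases of A or T, and GG. That form had no match in the 22 genes and stood in 1.47% of all windows. Looser forms of the box were not searched, so its absence from these genes cannot be read from this. A match is a description of letters and not of a bound factor.

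Levels below are CPM (counts scaled to a common library size) and cannot be compared between genes because gene length was not taken out. Fold changes are high-fat diet against chow. A gene is said to have risen or fallen where its p-value adjusted over all genes tested was under 0.05. By that rule 7 of the 30 tested genes rose and 1 fell, while 18% of all tested genes rose and 17.6% fell. The genes that rose were Col1a1, Col3a1, Col6a3, Fn1, Ecm1, Loxl2 and Tgfb1, and the gene that fell was Dcn. The 8 genes called of 30 were no larger a share than the 35.6% of all tested genes called in either direction. The libraries did not overlap between diets in 11 of the 30 genes, 9 with the high-fat diet above chow and 2 below, against 50.6% of all tested genes (25.1% above and 25.5% below). The median log2 fold change of the set was 0.44 against 0.02 over all tested genes, and 25 of the 30 log2 fold changes (83.3%) lay above 0 against 52.1% of all genes.

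The libraries of a diet differed from each other. High-fat replicate 3 was the highest of the high-fat libraries in 22 of the 30 genes (73.3%, against 35.8% of all tested genes), and high-fat replicate 1 was the lowest in 28 (93.3%, against 35.2%). The ratio of the highest to the lowest library had a median of 2.19 within the high-fat diet and 1.34 within chow, against 1.24 and 1.18 over all tested genes. Chow replicate 1 was the most deeply sequenced library, and it carried skeletal muscle transcripts that the others lacked. The summed level of 15 muscle markers was 206 CPM there and 0.716 to 1.5 CPM in the other libraries.

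**Figure D1:**
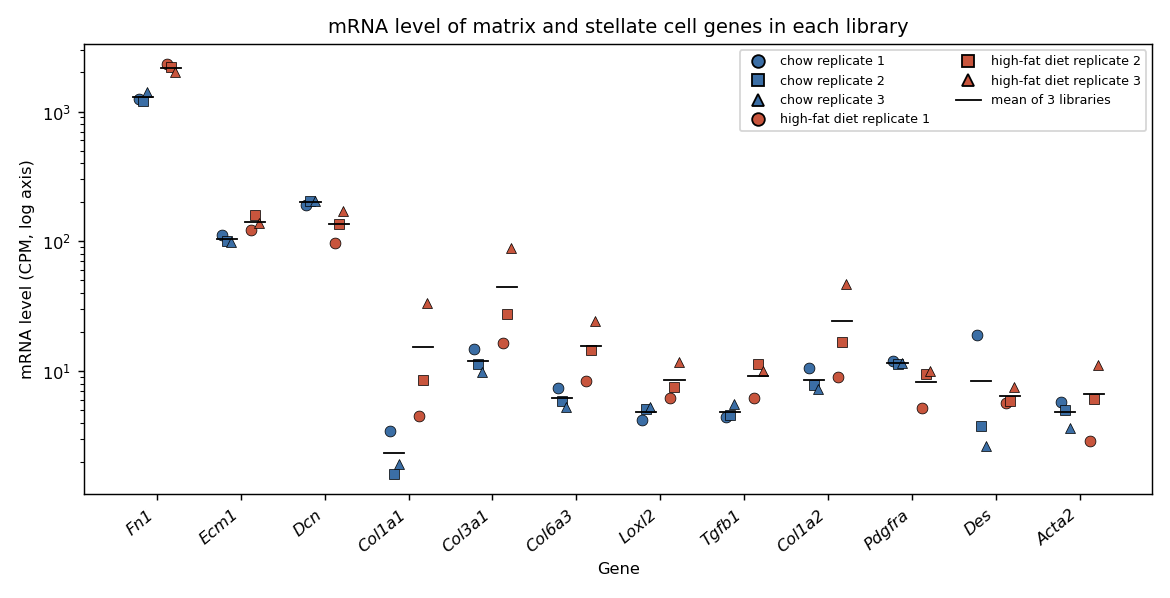
mRNA level in CPM (log axis) of 12 of the genes in each of the 3 chow libraries (blue) and 3 high-fat libraries (red), with the replicate shown by the symbol and the mean of 3 libraries by a bar. For Col1a1, Col1a2 and Col3a1 high-fat replicate 3 stands far above the others, for Fn1 the diets are apart with little spread, and for Des chow replicate 1 stands alone.

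The fibrillar collagens form the tensile fibers of scar tissue. Of the 4 genes, Col1a1 and Col3a1 rose, and Col1a2 and Col5a2 did not pass the test. Col1a1, which encodes the larger share of the type I collagen trimer, stood at 3.43, 1.61 and 1.94 CPM in chow replicates 1 to 3 and at 4.48, 8.59 and 33.2 CPM in high-fat replicates 1 to 3. Every high-fat library lay above every chow library, but high-fat replicate 1 lay only slightly above chow replicate 1. The fitted increase was 6.27-fold (log2 2.65, SE 0.70, adjusted p = 0.0199), and 2.68-fold without high-fat replicate 3 (adjusted p = 0.0163). The call was lost when chow replicate 2 (adjusted p = 0.0797) or replicate 3 (adjusted p = 0.0670) was left out.

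Col3a1, the chain of type III collagen, which is laid down together with type I, stood at 14.8, 11.3 and 9.84 CPM on chow and at 16.6, 27.4 and 89.4 CPM on the high-fat diet. The libraries did not overlap, and high-fat replicate 3 was 5.40 times high-fat replicate 1. Col3a1 rose 3.67-fold (log2 1.88, SE 0.55, adjusted p = 0.0296). The increase was 1.82-fold without high-fat replicate 3 (adjusted p = 0.0201), and the call was lost without any single chow library (adjusted p from 0.0603 to 0.0997).

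Col1a2, the partner chain of Col1a1 in type I collagen, stood at 10.5, 7.83 and 7.26 CPM on chow and at 9.0, 16.6 and 47.2 CPM on the high-fat diet. The diets overlapped, since high-fat replicate 1 lay below chow replicate 1. The fitted value of 2.81-fold did not pass (log2 1.49, SE 0.52, adjusted p = 0.0551), and it was 1.49-fold without high-fat replicate 3. Col5a2, a chain of the type V collagen that nucleates fibrils, stood at 2.66, 1.93 and 2.58 CPM on chow and at 2.80, 3.92 and 8.01 CPM on the high-fat diet. Its libraries did not overlap, but the fitted 2.03-fold did not pass (adjusted p = 0.0603).

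Summed over the 4 fibrillar collagens, chow libraries held 31.4, 22.6 and 21.6 CPM, and high-fat libraries 32.8, 56.5 and 178 CPM. High-fat replicate 3 was thus 7.05 times the chow mean, high-fat replicate 2 was 2.24 times and high-fat replicate 1 was 1.30 times. The same replicate was also highest in a summed list of 5 smooth muscle markers, at 36.6 CPM against 11.9 and 19.6 CPM in the other high-fat libraries and 15.3 to 21.0 CPM on chow. Whether vessel or portal tissue had a part in the collagen values was not tested.

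**Figure D2:**
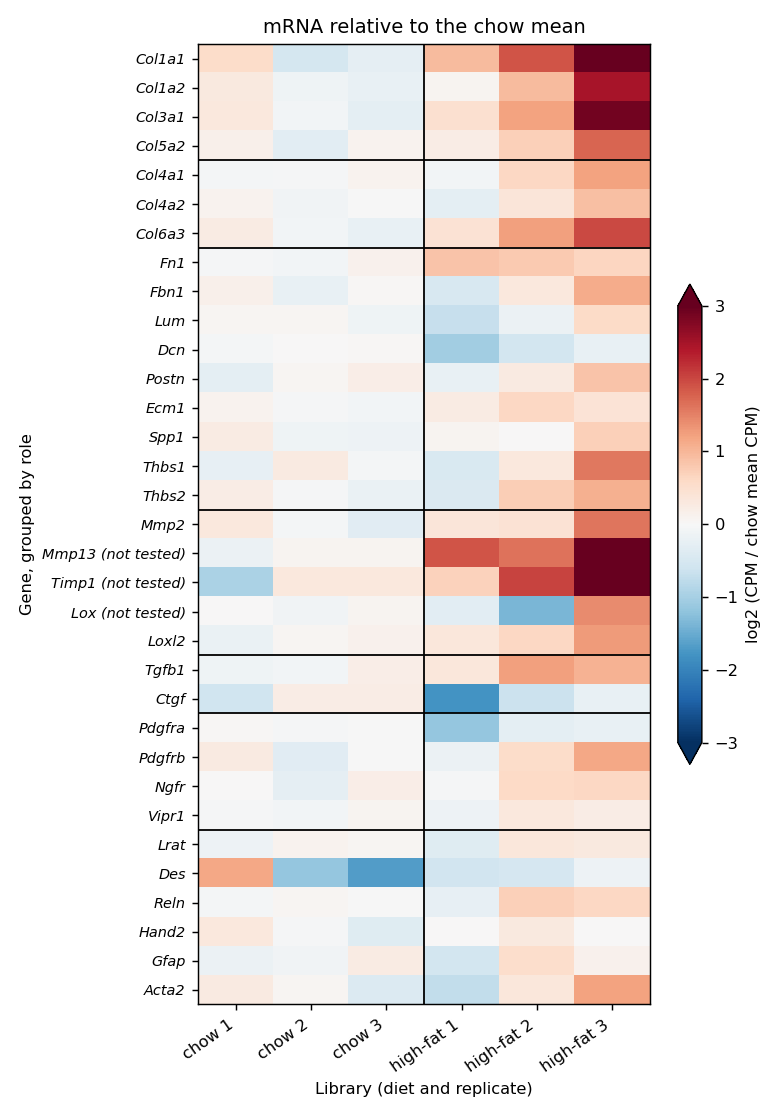
mRNA of all 33 genes in each library, as log2 of the CPM over the chow mean (color scale from -3 to 3, stronger values drawn at its ends), with genes in rows grouped by role and libraries in columns. High-fat replicate 3 has the strongest red, in Col1a1 and in the untested, low-count Mmp13 and Timp1, and high-fat replicate 1 has the most blue among the high-fat libraries.

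Type IV collagen forms the sheet of basement membranes, and type VI forms beaded microfibrils around cells. Of these 3 genes, Col6a3 rose and the type IV chains did not pass. Col6a3 stood at 7.36, 5.85 and 5.27 CPM on chow and at 8.35, 14.4 and 24.3 CPM on the high-fat diet, an increase of 2.51-fold (log2 1.33, SE 0.34, adjusted p = 0.0177). All high-fat libraries lay above all chow libraries. The call was lost when chow replicate 2 (adjusted p = 0.0682) or replicate 3 (adjusted p = 0.0644) was left out.

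Col4a1 stood at 28.5, 28.8 and 31.9 CPM on chow and at 28.3, 45.6 and 68.8 CPM on the high-fat diet. Its partner chain Col4a2 stood at 24.2, 20.9 and 22.5 CPM on chow and at 18.4, 29.1 and 41.9 CPM on the high-fat diet. In both, high-fat replicate 1 was the lowest library of all 6 and high-fat replicates 2 and 3 lay above every chow library. Neither passed, with 1.60-fold for Col4a1 (adjusted p = 0.0786) and 1.32-fold for Col4a2 (adjusted p = 0.239).

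Among the 9 glycoproteins and proteoglycans, Fn1 and Ecm1 rose, Dcn fell and 6 did not pass. Fn1 encodes fibronectin, which links cells to collagen. It stood at 1244, 1207 and 1403 CPM on chow and at 2306, 2206 and 2000 CPM on the high-fat diet, or 1284 ± 104 against 2171 ± 156 CPM (SD, n = 3 libraries per diet). The diets were clearly apart, and in this gene high-fat replicate 1 was the highest library and high-fat replicate 3 the lowest of its diet. The increase was 1.69-fold (log2 0.76, SE 0.12, adjusted p = 0.00191). It was the only gene of the set that still passed whichever of the 6 libraries was left out, with 1.64-fold to 1.76-fold and a highest adjusted p of 0.0195.

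Ecm1, extracellular matrix protein 1, is a secreted glycoprotein known to hold latent TGF-beta inactive in liver. It stood at 111, 101 and 98.3 CPM on chow and at 123, 160 and 138 CPM on the high-fat diet. The libraries did not overlap, and the increase was small, 1.36-fold (log2 0.44, SE 0.11, adjusted p = 0.0135). The call was lost when chow replicate 2 (adjusted p = 0.0597) or replicate 3 (adjusted p = 0.0649) was left out.

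Dcn encodes decorin, a small proteoglycan that binds collagen fibrils and TGF-beta. It stood at 192, 203 and 205 CPM on chow and at 97.5, 137 and 172 CPM on the high-fat diet. All high-fat libraries lay below all chow libraries, and as with most of the set high-fat replicate 1 was lowest and high-fat replicate 3 highest. Dcn fell, at 1.48-fold lower (log2 -0.56, SE 0.18, adjusted p = 0.0368). The call was lost when libraries were scaled by their total counts (log2 -0.47, adjusted p = 0.117), without any single chow library (adjusted p from 0.0679 to 0.102) and without high-fat replicate 2 (adjusted p = 0.0948).

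The 6 others overlapped between diets. Fbn1, the microfibril protein fibrillin-1, stood at 3.0 to 3.88 CPM on chow and at 2.52, 4.35 and 7.52 CPM on the high-fat diet (1.36-fold, adjusted p = 0.346). Lum, the fibril-binding proteoglycan lumican, had almost the same mean in both diets, at 8.18 ± 0.62 CPM on chow and 8.14 ± 3.63 CPM on the high-fat diet (SD, n = 3 libraries per diet). Its high-fat libraries were spread on both sides of chow, at 5.04, 7.25 and 12.1 CPM. Postn, the matricellular protein periostin, stood at 9.51, 12.1 and 13.3 CPM on chow and at 10.03, 13.9 and 21.2 CPM on the high-fat diet (1.30-fold, adjusted p = 0.270). Spp1, osteopontin, stood at 36.5, 28.1 and 27.6 CPM on chow and at 32.7, 31.1 and 50.6 CPM on the high-fat diet (1.24-fold, adjusted p = 0.252). In both, only high-fat replicate 3 lay well above the chow range.

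Thbs1 and Thbs2 encode thrombospondins, of which the first can release active TGF-beta from its latent form. Thbs1 stood at 2.01, 2.84 and 2.26 CPM on chow and at 1.73, 2.94 and 7.07 CPM on the high-fat diet. Its 1.67-fold (adjusted p = 0.238) came down to 1.01-fold without high-fat replicate 3. Thbs2 stood at 4.22, 3.54 and 3.17 CPM on chow and at 2.71, 6.08 and 7.65 CPM on the high-fat diet (1.49-fold, adjusted p = 0.210).

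**Figure D3:**
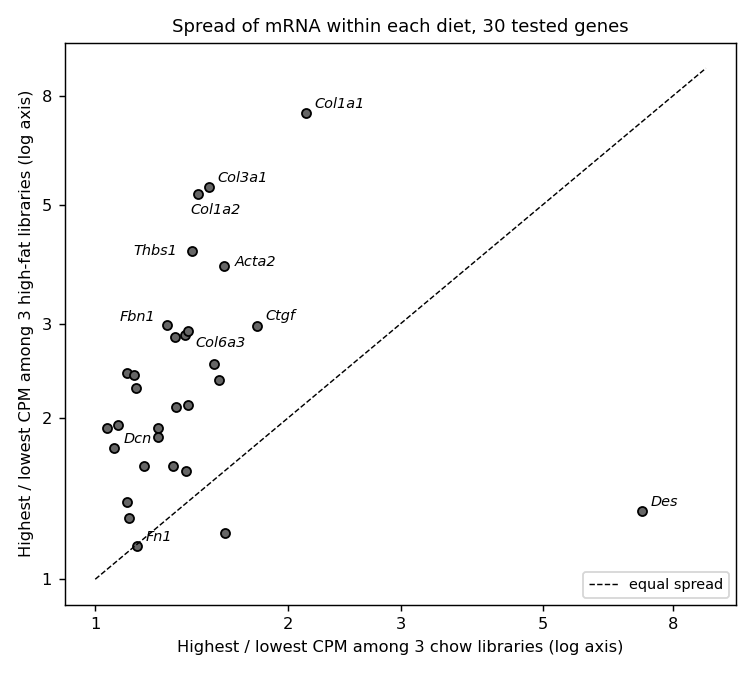
Ratio of the highest to the lowest of 3 chow libraries (x axis, log) and of 3 high-fat libraries (y axis, log) for each of the 30 tested genes, with a dashed line where both are equal. The high-fat ratio was the larger in 27 genes and reached 7.42 in Col1a1, Fn1 lies next to the line, and Des lies far to the right with a chow ratio of 7.15.

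Proteases, their inhibitor and the crosslinkers set how matrix is removed and hardened. Loxl2, which crosslinks collagen through its lysines, stood at 4.20, 5.10 and 5.27 CPM on chow and at 6.16, 7.53 and 11.8 CPM on the high-fat diet. The libraries did not overlap, and Loxl2 rose 1.77-fold (log2 0.82, SE 0.24, adjusted p = 0.0298). It kept the call only without high-fat replicate 1, and leaving out any other library gave an adjusted p of 0.0531 to 0.101. Mmp2, gelatinase A, stood at 2.69, 2.09 and 1.72 CPM on chow and at 2.80, 2.94 and 6.58 CPM on the high-fat diet, without overlap and without passing (1.85-fold, adjusted p = 0.0839).

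Mmp13, Timp1 and Lox had too few counts to pass the filter, so they were not tested. Mmp13, the main interstitial collagenase of the mouse, had 2, 1 and 1 counts on chow and 4, 4 and 24 counts on the high-fat diet. The ratio of the diets' summed counts, scaled by depth, was 9.41 (95% interval 3.34 to 36.6, exact Clopper-Pearson, counting error only). Timp1, an inhibitor of these proteases, had 2 counts in each chow library and 3, 9 and 18 counts on the high-fat diet, with a ratio of 5.88 (95% interval 2.41 to 17.3). Most of the high-fat counts of Mmp13 (24 of 32) and of Timp1 (18 of 30) came from replicate 3.

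With no filter on counts, Mmp13 (adjusted p = 0.0340) and Timp1 (adjusted p = 0.0397) passed. Lox, lysyl oxidase, had 33 counts on chow and 35 on the high-fat diet, 24 of them in high-fat replicate 3, and a ratio of 1.25 (95% interval 0.753 to 2.07). The interval of Lox includes no difference.

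Of the profibrotic signals, Tgfb1 rose and Ctgf did not pass. Tgfb1 encodes transforming growth factor beta 1, the cytokine best known for driving collagen transcription in stellate cells. It stood at 4.43, 4.61 and 5.54 CPM on chow and at 6.16, 11.3 and 9.98 CPM on the high-fat diet. The libraries did not overlap, with high-fat replicate 2 highest, and the increase was 1.9-fold (log2 0.93, SE 0.23, adjusted p = 0.0141). Leaving out chow replicate 1 or 2 or high-fat replicate 2 each ended the call, with adjusted p = 0.0551, 0.0580 and 0.0573.

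Ctgf encodes connective tissue growth factor, a classic TGF-beta and YAP target. It stood at 11.9, 21.2 and 21.2 CPM on chow and at 5.22, 11.7 and 15.5 CPM on the high-fat diet. The mean was lower on the high-fat diet, opposite to Tgfb1, but high-fat replicate 3 lay above chow replicate 1. The fitted value was 1.66-fold lower and did not pass (log2 -0.73, SE 0.36, adjusted p = 0.154). Without high-fat replicate 3, which was the highest of its diet, the log2 value was -1.07 and passed (adjusted p = 0.0454).

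None of the 4 receptors passed with edgeR or with DESeq2, and 1, Pdgfra, had an unadjusted p under 0.05. Pdgfra, the PDGF receptor alpha of quiescent mesenchymal cells, stood at 11.9, 11.4 and 11.6 CPM on chow and at 5.18, 9.45 and 9.94 CPM on the high-fat diet. Its high-fat libraries all lay below chow, with 1.41-fold lower (adjusted p = 0.106). Pdgfrb, the PDGF receptor beta through which stellate cells proliferate, stood at 8.15, 5.31 and 6.67 CPM on chow and at 5.92, 9.76 and 14.9 CPM on the high-fat diet, with overlap (1.5-fold, adjusted p = 0.169). Ngfr, the p75 neurotrophin receptor of stellate cells, stood at 3.41, 2.79 and 3.87 CPM on chow and at 3.27, 5.10 and 5.19 CPM on the high-fat diet (1.35-fold, adjusted p = 0.158). Vipr1, the receptor of vasoactive intestinal peptide, stood at 46.5, 44.9 and 50.4 CPM on chow and at 42.4, 59.1 and 55.5 CPM on the high-fat diet (1.11-fold, adjusted p = 0.385). In all 4 receptors high-fat replicate 1 was the lowest of its diet, and Pdgfrb, Ngfr and Vipr1 passed as higher without it (adjusted p = 0.0224, 0.0276 and 0.0328).

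The 6 genes of stellate cell identity and cytoskeleton did not pass in either direction with edgeR or DESeq2, and 0 of them had an unadjusted p under 0.05. Lrat makes the retinyl esters that stellate cells store. It stood at 14.6, 17.4 and 16.9 CPM on chow and at 12.8, 20.8 and 19.9 CPM on the high-fat diet, on both sides of the chow range (1.10-fold, adjusted p = 0.586). Reln, the secreted protein reelin, stood at 59.1, 64.1 and 60.3 CPM on chow and at 51.9, 101 and 94.7 CPM on the high-fat diet (1.35-fold, adjusted p = 0.148). High-fat replicates 2 and 3 lay above every chow library and high-fat replicate 1 below, and without the latter Reln passed (1.60-fold, adjusted p = 9.1e-04). Lrat passed without it as well (1.25-fold, adjusted p = 0.0416). Hand2, a transcription factor of stellate cells, stood at 7.29, 5.74 and 4.57 CPM on chow and at 5.88, 7.18 and 5.95 CPM on the high-fat diet, within the chow range (1.07-fold, adjusted p = 0.727).

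Des encodes desmin, the intermediate filament of stellate cells and of muscle. It stood at 18.8, 3.76 and 2.63 CPM on chow and at 5.64, 5.92 and 7.56 CPM on the high-fat diet. Chow replicate 1 was the highest of all 6 libraries and the other chow libraries the lowest, so the diets overlapped and the test did not pass (log2 -0.47, SE 0.62, adjusted p = 0.584). The same library carried the skeletal muscle transcripts, with 2574 counts of Acta1, the actin of skeletal muscle, against 0 to 2 counts in each other library. Without chow replicate 1, Des was 1.99-fold higher on the high-fat diet and passed (adjusted p = 0.0191).

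Acta2, the smooth muscle actin that marks myofibroblasts and vessel walls, stood at 5.8, 5.04 and 3.66 CPM on chow and at 2.89, 6.12 and 11.1 CPM on the high-fat diet. The high-fat libraries reached both below and above all chow libraries, and the test did not pass (1.37-fold, adjusted p = 0.420). Without high-fat replicate 3 the log2 value turned to -0.11. Gfap, another filament protein of stellate cells, was near the limit of detection with 6 to 16 counts a library (adjusted p = 0.772).

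High-fat replicate 1 was the lowest library of its diet in most of the set, so leaving it out had to raise the high-fat mean of those genes. Without it the genes of the set called higher went from 7 to 20, and over all tested genes from 2319 to 2580. Leaving out chow replicate 2 left 1 gene, Fn1, and leaving out chow replicate 3 left 2, Fn1 and Tgfb1. Over all tested genes 1489 and 1599 were then higher. Without high-fat replicate 3 the median log2 fold change of the set was 0.18, and without high-fat replicate 1 it was 0.69. In the authors' deposited table of DESeq2 results, 6 of the 29 genes with an adjusted p were higher and 0 were lower. The 6 were Col5a2, Col6a3, Fn1, Mmp13, Timp1 and Loxl2. Over all 17886 genes with an adjusted p there, 2478 were higher and 2310 lower. Col1a1, Col1a2, Col3a1 and Des had no adjusted p in the authors' deposited table. The authors' deposited table gave an adjusted p of 0.301 for Ecm1, 0.152 for Tgfb1 and 0.222 for Dcn.

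Collagen must be hydroxylated, folded and crosslinked before it forms fibers. Of 18 such genes tested, 9 rose and 0 fell, with a median log2 fold change of 0.53. For this and the lists below, the measure is that 18% of all tested genes rose and 17.6% fell. Serpinh1, the collagen chaperone HSP47, stood at 5.17, 5.85 and 4.25 CPM on chow and at 12.5, 12.5 and 19.3 CPM on the high-fat diet, an increase of 2.89-fold (adjusted p = 0.00103). The lysyl hydroxylases Plod3 (1.56-fold, adjusted p = 0.00174) and Plod1 (1.46-fold, adjusted p = 0.00262) rose too. Over the alternatives run, including each library left out, 6 to 9 of these genes were higher, and 1 was lower without high-fat replicate 1.

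Of 16 other collagen genes tested, 5 rose and 1 fell (median log2 fold change 0.50), with 2 to 7 higher over the alternatives. Col27a1, a fibrillar collagen of cartilage, rose 3.31-fold (adjusted p = 0.00364). Its high-fat libraries, at 56.5, 42.9 and 30.1 CPM, had the order opposite to Col1a1, and chow stood at 19.0, 9.76 and 9.52 CPM. Col18a1, the basement membrane collagen that holds endostatin, rose 1.60-fold (adjusted p = 0.00375) and Col16a1 rose 2.26-fold (adjusted p = 0.0182). The type IV chain Col4a4, at 6 to 35 counts a library, fell (log2 -1.03, adjusted p = 0.0418). That call was lost under total counts, with DESeq2, with a replicate block and when any library other than chow replicate 3 was left out. Of 24 other glycoproteins and proteoglycans, 7 rose and 0 fell (median 0.58), led by Tnxb, Emilin1 and Tgfbi. In this list 2 were higher without chow replicate 2 and 13 without high-fat replicate 1, and 2 were lower without high-fat replicate 3.

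Of 15 basement membrane genes, 2 rose and 1 fell (median log2 fold change 0.15). Lama1, a laminin chain, and Hspg2, perlecan, rose, and Nid2, a nidogen that links laminin to collagen IV, fell from 7.0, 5.04 and 7.26 CPM on chow to 2.05, 3.49 and 3.63 CPM. The number higher was 1 without chow replicate 1, 0 without chow replicate 2, chow replicate 3 or high-fat replicate 2, and 6 without high-fat replicate 1. The median turned to -0.05 without high-fat replicate 3. Of 17 other proteases and inhibitors, 4 rose and 2 fell (median 0.11, and -0.15 without high-fat replicate 3). Mmp15, a membrane-bound protease, rose 2.47-fold (adjusted p = 6.1e-04) and the macrophage elastase Mmp12 rose 11.4-fold (adjusted p = 0.00840). Mmp14, a membrane protease that activates Mmp2, and Adamts1 fell.

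In the TGF-beta list of 20 tested genes, 3 rose and 5 fell, with a median log2 fold change of -0.07 that turned to 0.02 when libraries were scaled by total counts. Furin, a protease that matures TGF-beta, the integrin subunit Itgb5 and the co-receptor Eng rose. The integrin subunit Itgb1, the type I receptor Tgfbr1 (log2 -0.64, adjusted p = 0.00381) and the signal transducer Smad3 (log2 -0.48, adjusted p = 0.00570) fell. Under total counts 3 genes of the list were lower, and 0 were higher without chow replicate 2 and 5 without high-fat replicate 1. Over all tested genes 18% rose and 17.6% fell. By these calls the ligand Tgfb1 rose and its receptor Tgfbr1 fell, but Tgfb1 passed in only 3 of the 6 fits with 1 library left out.

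Of 24 other stellate cell markers, 7 rose and 2 fell (median log2 fold change 0.27), with 3 to 10 higher over the alternatives. Steap4, a metalloreductase, rose 5.95-fold (adjusted p = 1.3e-04), from 43.4, 55.1 and 65.7 CPM to 321, 404 and 249 CPM. The extracellular superoxide dismutase Sod3 and the vesicle protein Plvap rose, and the transcription factor Tcf21 fell. Agtr1a, the angiotensin II receptor, fell from 105, 93.6 and 110 CPM to 47.1, 49.9 and 49.9 CPM (log2 -1.07, adjusted p = 1.3e-04). Several genes of this list are not particular to stellate cells. Steap4 and Agtr1a are also known from hepatocytes, and Plvap is best known from endothelium.

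Markers of the other cells in the samples moved in part with the diet. Of 20 macrophage markers, 6 rose, led by Mpeg1, Mmp12 and Cd68, and 1 fell, Cd9. The call of Cd9 was lost under total counts and without chow replicate 2, chow replicate 3, high-fat replicate 1 or high-fat replicate 2. The summed level of the macrophage markers ran from 336 to 613 CPM on chow and from 442 to 756 CPM on the high-fat diet. Of 17 endothelial markers, 3 rose (Gpr182, Eng and Tie1) and 0 fell, with summed levels of 361 to 514 CPM and 395 to 680 CPM. Of 10 cholangiocyte markers, 2 rose (Pkhd1 and Onecut1) and 1 fell. The summed level was 34.3 to 43.6 CPM on chow and 52.7 to 60.1 CPM on the high-fat diet. No cholangiocyte marker was lower under total counts or without chow replicate 1, chow replicate 2 or high-fat replicate 2. Of 14 portal fibroblast, mesothelial and smooth muscle markers, Entpd2 rose, except without chow replicate 2, and 0 fell, with summed levels of 27.8 to 39.9 CPM on chow and 23.9, 35.1 and 64.2 CPM on the high-fat diet. In the smooth muscle list alone, 0 of 5 passed with edgeR or DESeq2, and of the skeletal muscle list 1 gene was tested and did not pass with edgeR, while 1 was lower with DESeq2 and 11 were lower with no count filter. Over the alternatives 2 to 8 macrophage markers and 0 to 8 endothelial markers were higher, with the most in both lists when high-fat replicate 1 was left out.

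Of 24 pancreas acinar markers, 21 fell, led by Gp2, Pla2g1b and Cela1, with summed levels of 647 to 2749 CPM on chow and 244 to 512 CPM on the high-fat diet. The count was 9 with DESeq2, 6 without chow replicate 1, 8 without chow replicate 2 and 12 without high-fat replicate 1. Of 12 hepatocyte markers, 2 rose (Ttr and Trf) and 4 fell, led by G6pc, Cps1 and Tat, and the summed level was 107420 to 134500 CPM in all libraries. Without chow replicate 2, 0 hepatocyte markers were higher, and without high-fat replicate 1, 7 were lower. Of 5 blood cell markers Alas2 rose, a call lost without chow replicate 2 or high-fat replicate 2. The part of any of these cells in the values of the matrix genes was not tested.

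At the promoters, 0 of the 33 genes passed the test for H3K27ac, against 0.235% of all 20891 promoters (0.187% higher and 0.0479% lower). DESeq2 also called 0 of the 33, and 8 of the 33 had an unadjusted p under 0.05, against 14% of all promoters. In these counts the promoter that Col4a1 and Col4a2 share stands for both genes. The log2 fold changes ran from -0.49 to 0.42 with a median of 0.08, against a median of -0.003 over all promoters. For 9 genes the promoter values of the diets were fully apart, 5 with the high-fat diet above chow and 4 below (Col4a1 and Col4a2, with 1 promoter, Loxl2 and Ctgf), against 19.5% of all promoters (9.77% above and 9.73% below). A promoter of the set held 7 to 405 counts in a library.

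**Figure D4:**
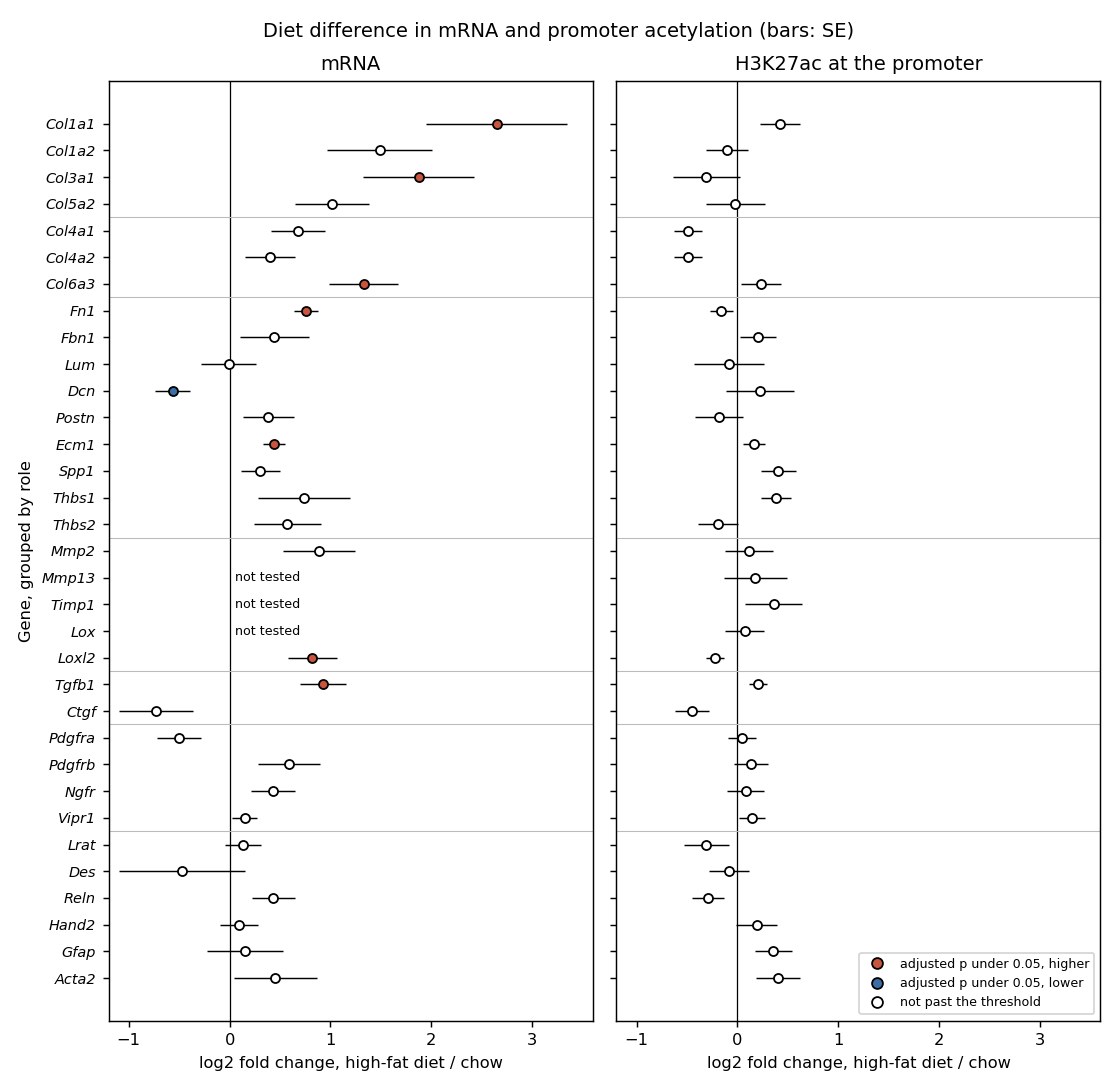
Log2 fold change, high-fat diet against chow, of mRNA (left) and of H3K27ac at the promoter (right) for the 33 genes, with bars of 1 SE, filled where the adjusted p was under 0.05. The mRNA values spread up to 2.65 in Col1a1, while no promoter value is filled and all lie between -0.49 and 0.42.

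Col1a1 had the highest log2 fold change of promoter H3K27ac in the set, with levels of 18.2, 15.0 and 17.2 CPM on chow and of 25.9, 17.5 and 26.0 CPM on the high-fat diet. High-fat replicate 2 lay within the chow range, and the test did not pass (log2 0.42, SE 0.20, adjusted p = 0.336). Col3a1, whose mRNA rose, had a promoter level of 5.14, 4.30 and 4.72 CPM on chow and 3.48, 3.45 and 4.48 CPM on the high-fat diet (log2 -0.31, SE 0.33, adjusted p = 0.703). The Col1a2 promoter overlapped as well, at 20.3, 14.2 and 15.4 CPM on chow and 16.9, 15.1 and 15.4 CPM on the high-fat diet. The wide lead of high-fat replicate 3 in the mRNA of these collagens was not seen here. The summed fibrillar collagen promoters stood at 50.8, 43.8 and 52.9 CPM in high-fat replicates 1 to 3 and at 39.1 to 51.9 CPM on chow. High-fat replicate 3 was thus highest by a small margin only. The labels do not say that equal replicate numbers in mRNA and H3K27ac stand for 1 liver.

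Col4a1 and Col4a2 are transcribed in opposite directions from 1 shared promoter, and the deposited table gives both the same counts. In RefSeq their start sites lie 21 bases apart. The shared promoter stood at 50.3, 61.9 and 54.2 CPM on chow and at 27.4, 39.6 and 46.2 CPM on the high-fat diet. All high-fat libraries lay below all chow libraries, while the mRNA of both genes had a mean above chow. The promoter difference did not pass (log2 -0.49, SE 0.14, adjusted p = 0.111).

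Ctgf was lower at both levels without passing at either, with 27.6, 45.6 and 35.3 CPM of promoter H3K27ac on chow and 26.4, 27.1 and 24.1 CPM on the high-fat diet (log2 -0.45, SE 0.17, adjusted p = 0.234). Tgfb1 stood at 81.3, 85.6 and 78.8 CPM on chow and at 92.6, 87.9 and 101 CPM on the high-fat diet, without overlap (log2 0.20, SE 0.09, adjusted p = 0.313). Loxl2, whose mRNA rose, lay lower at its promoter, at 79.0, 93.7 and 83.2 CPM on chow and 69.7, 75.4 and 71.1 CPM on the high-fat diet (log2 -0.22, SE 0.09, adjusted p = 0.279). Spp1 and Thbs1 were among the promoters with every high-fat library above chow (adjusted p = 0.299 and 0.239).

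The sign of the mRNA and of the promoter value was the same in 17 of the 30 genes tested in both (56.7%), and in 4 of the 8 genes called in mRNA (50%). Over all genes tested in both it was the same in 57.7%, and over all genes called in mRNA in 63%. Of the 4 called genes with unlike signs, Col3a1, Fn1 and Loxl2 were higher in mRNA and Dcn lower. The promoters of Col3a1 (7 to 23 counts a library) and Dcn (9 to 23 counts) held few counts. Their log2 values, -0.31 (SE 0.33) and 0.22 (SE 0.34), were smaller than their SE, so the sign of these 2 promoters is uncertain. Among the promoters of the other gene lists 2 passed: Cd68, a macrophage marker, was higher (adjusted p = 0.0427) and Mmp11, a matrix protease, was lower (adjusted p = 0.0454). Neither list had a called promoter with DESeq2, without any single chow library or without high-fat replicate 3, and Mmp11 also lost its call under total counts. In the authors' deposited table of promoter results, 0 of the 33 genes passed. Over all 22600 promoters with an adjusted p there, 37 were higher and 11 lower.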

How the data were processed

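mRNA and H3K27ac were measured in whole liver. The deposited files hold raw counts per gene and per promoter; per the submitters' processing notes, mRNA reads were handled with TopHat 1.4.0, HTSeq and DESeq2 1.0.18 and H3K27ac reads with Bowtie 0.12.7 and MACS 1.4.0rc2, on build mm9. The mRNA kit does not mark strand, so reads of overlapping antisense genes cannot be told apart. Promoter width is not given in the sources used here. The authors' deposited tables give log2 fold changes, adjusted p-values and a mean signal per gene from DESeq2, used only where named.

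Total counts ran from 19016275 to 45741794 for mRNA and from 1967613 to 4964403 for promoters. Each table was fitted whole in edgeR 4.0.16 (R 4.3.3): filterByExpr by diet with a minimum count of 10, TMM scaling, and the quasi-likelihood test with diet as the only term, two-sided, Benjamini-Hochberg over all features tested, threshold 0.05. The fit was tested on simulated data, with changes planted in features above a minimum level. For mRNA it called 94% of planted log2 changes of size 1 and 100% of those of size 2, with 4.9% of calls false. For promoters it called 53% of planted log2 changes of size 0.5 and 88% of those of size 1, with 6% of calls false. A promoter change near 0.5, the size of the largest in the set, can thus go uncalled. Alternatives were other scalings (DESeq2's RLE size factors, total counts), DESeq2 1.42.0, no count filter, a replicate block and each library left out.

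The genes and lists were chosen with earlier results of these data known, and the muscle lists after the values were seen. Every gene of the set is named; of other lists, up to 3 called genes in each direction with the smallest adjusted p, some of which are not reported here. Headers of the deposited peak lists carry a different directory code per diet and no batch is labelled, so diet and any batch that ran along with it cannot be told apart. Peak files, H3K4 marks and IgG controls were not used here, because no mm9 annotation was at hand to place peaks at genes.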

Additional observations from a re-analysis of the deposited data

How the results depend on the processing

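Of the 33 genes, Fn1 alone kept its mRNA call under every alternative run. With DESeq2, 11 genes of the set were higher, adding Col5a2, Col4a1, Mmp2 and Mmp13 to the 7. Over all 14501 genes with an adjusted p, DESeq2 called 2157 higher and 2174 lower. With no count filter 10 of the set were higher, adding Col1a2, Mmp13 and Timp1. Over all 17954 genes then tested, 2253 were higher and 2207 lower. Leaving out each library in turn gave 2899 to 5163 called genes in all, 1 to 20 of the set higher and 0 to 2 lower. Under total counts 0 of the set were lower, and that scaling moved the median of all genes to 0.10 and the calls over all genes to 2805 higher and 1646 lower, against 2319 and 2271.

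Signs turned as follows. Lum mRNA was 0.085 under total counts. With 1 library left out, log2 values ran from -0.028 to 0.74 for Fbn1, -0.41 to 0.23 for Lum, -0.89 to 0.99 for Des, -0.068 to 0.30 for Hand2 and -0.11 to 0.80 for Acta2. At promoters they ran from -0.18 to 0.073 for Col1a2, -0.17 to 0.16 for Col5a2, -0.25 to 0.013 for Lum, -0.14 to 0.31 for Mmp2, -0.058 to 0.25 for Lox, -0.014 to 0.12 for Pdgfra, -0.0086 to 0.23 for Pdgfrb and -0.024 to 0.17 for Ngfr, and Col5a2 was 0.00043 under total counts. The promoter count of 49 ran from 0 (without chow replicate 2) to 736 (without high-fat replicate 2), with 0 of the set in each. The cause was not tested.

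The labels do not say whether equal replicate numbers pair libraries across the diets, and 3 libraries per diet are too few to settle it. Deviations of same-numbered libraries from their diet mean correlated at 0.04, -0.04 and 0.14 for mRNA and 0.09, -0.01 and 0.04 for promoters. With a replicate block, 6 genes of the set were higher and 2 lower in mRNA (Col3a1 was not called, Ctgf was, log2 -0.82, and Des was 0.013). Over all 12909 tested genes 2274 were then higher and 2188 lower. At promoters 470 were called, with 2 of the set lower, the shared Col4a1 and Col4a2 promoter (log2 -0.54). Low counts limit Mmp13, Timp1, Lox and Gfap in mRNA and, among others, Col3a1, Lum and Dcn at promoters.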
